A study of Homo sapiens with 27 samples.

Results

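Confluent U2OS cells that carried a short hairpin RNA against MMP2, the MMP2sh1 line, were compared with confluent U2OS cells that carried the pLKO.1 control vector. The members of the comparison were all genes that passed a filter on low read counts, 19536 of the 55882 gene symbols in the files, and they were measured in 6 of the 27 libraries. U2OS is a human osteosarcoma cell line. Both lines were transduced with a pLKO.1 lentivirus and selected with puromycin, so the control cells also carry the vector and its resistance gene, with no hairpin (the labels call them WT with a blank vector). The MMP2sh1 cells are labelled MMP2KD_23, and a further line with another hairpin, MMP2sh2, is labelled MMP2KD_26. All lines were plated sparse in medium with fetal bovine serum and collected at plating density (day −2, subconfluent), at confluence (day 0) or 2 days past confluence (day +2, overconfluent), with 3 libraries each, which the study describes as independent biological replicates. Each hairpin was studied in 1 transduced line, so an effect of the hairpin and a property of its line cannot be told apart. Per the study, the medium holds MMP-2 too, so the hairpin lowers the cells' own mRNA and not all MMP-2 around them. Because whole cultures were sequenced, fewer cells that express a gene and less RNA of it per cell cannot be told apart.

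MMP-2, the product of MMP2, is a zinc-dependent endopeptidase known as gelatinase A, which degrades denatured collagen and basement membrane collagen. It is secreted as a proenzyme and activated at the cell surface by a complex of the membrane-bound protease MMP14 and the inhibitor TIMP2. The study examined it as a nuclear protease that removes the amino-terminal tail of histone H3, and the comparison described here asks which mRNAs differ in confluent cells when MMP2 mRNA is lowered.

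The 6 libraries held 33580129 to 59142223 reads on genes, and those of the control, 40449661 to 45180727, lay within the range of MMP2sh1. Pearson's r of log2 CPM between replicates was 0.996 to 0.997 across genes, which are not independent, and a chi-square of their counts, 4.86 to 9.17 for each degree of freedom, was above what sampling alone gives. Markers of the osteoblast lineage were fixed for the labelled cell type. Among them COL1A1 was at a mean of 1.29e+03 CPM and RUNX2 at 52.7 CPM in the control. Of the 11 markers 5 were under 1 CPM, namely SP7, BGLAP, IBSP, DLX5 and COL1A2. COL1A2 was at a mean of 0.168 CPM in the control and 0.117 CPM in MMP2sh1. IBSP had no read in any of the 6 libraries. The levels below are reads per 1e+06 reads on genes (CPM), scaled with TMM factors, and groups of values are given in the order of replicates 1, 2 and 3. A log2 fold change is MMP2sh1 over control, with its standard error, and a gene is called when edgeR's quasi-likelihood test gives it a Benjamini-Hochberg adjusted p, over all 19536 genes, under 0.05.

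MMP2 was at 318, 324 and 332 CPM in the control libraries and at 53.6, 57.4 and 66.3 CPM in MMP2sh1. Every MMP2sh1 library lay far below every control library (log2 fold change −2.47, standard error 0.05, adjusted p = 3.1e-27), and no other gene had so small a p. The gene lies on chromosome 16 of GRCh37, chr16:55423612-55540603, on the plus strand. Of 13 genes that activate, inhibit or bind MMP-2, 12 passed the filter, and MMP2 itself, MMP14, MMP16 and TIMP2 were called lower and FURIN and CAV1 higher. MMP14, the membrane protease that activates proMMP-2, was at 143, 139.8 and 147 CPM in the control libraries and at 100.1, 108 and 130.03 CPM in MMP2sh1. Its MMP2sh1 libraries were all under the lowest control library, replicate 3 least so (log2 fold change −0.36, standard error 0.06, adjusted p = 3.1e-05). TIMP2, which forms the activation complex and at higher amounts inhibits MMP-2, was at 391, 385 and 388 CPM in the control libraries and at 309, 321 and 321 CPM in MMP2sh1, with no overlap between the groups (log2 fold change −0.30, standard error 0.04, adjusted p = 4.0e-07). The proprotein convertase FURIN, which activates MMP14, was higher at 0.23 (adjusted p = 3.3e-04), and CAV1, the caveolae scaffold, at 0.31 (adjusted p = 9.0e-08). The other inhibitors TIMP1 (0.08), TIMP3 (0.02) and RECK (0.04) were not called, and TIMP4 did not pass the filter.

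Of the 19536 genes tested, 3290 were called (16.8%), 1613 of them higher (8.26%) and 1677 lower (8.58%) in MMP2sh1. The CPM of the groups did not overlap in 6110 genes (31.3%), including 1555 of the higher and 1610 of the lower calls. Most changes were small. Called genes had a median size of change of 0.30 on the log2 scale, and 1262 of the higher and 1218 of the lower calls were under 0.5. A change of more than 2-fold was called in 127 genes that rose and 149 that fell. What could be called depended on the level of a gene. Of 4455 genes with a mean under 1 CPM 2.58% were called, with a median absolute log2 fold change of 2.06, whereas of 2190 genes over 100 CPM 35.2% were called, with a median of 0.18. Protein-coding genes were called in 20.9% of 14308 cases, 1436 higher and 1553 lower, and long noncoding RNAs in 10.0% of 678 cases, 43 higher and 25 lower. The counts of the gene lists below stand beside these shares. Lists of histone genes (21.6% called), interferon-stimulated genes (23.7%), endoplasmic reticulum chaperones (25%) and nuclear respiratory chain genes (25%) were not far from that of protein-coding genes. Such counts are given as values only.

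**Figure D1:**
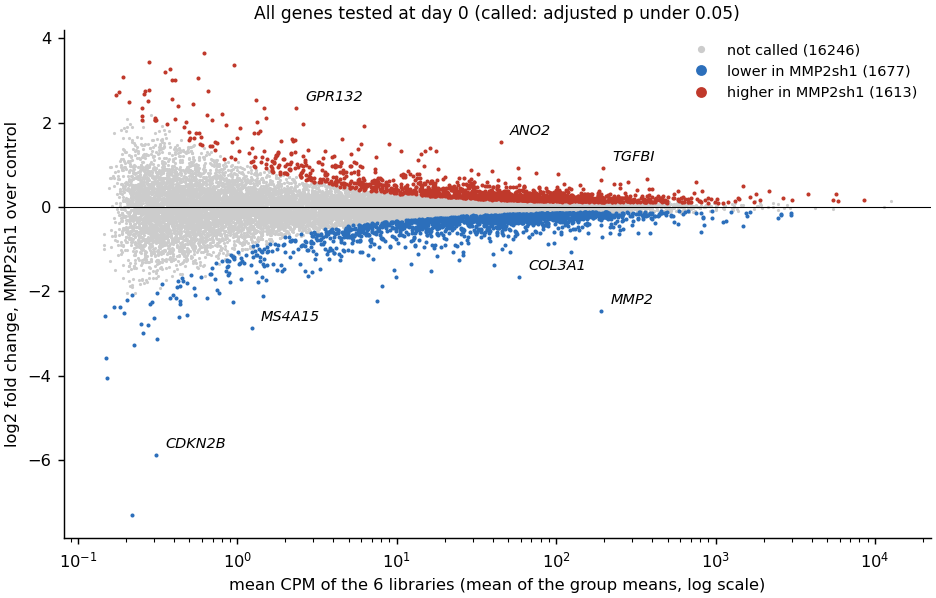
Log2 fold change of MMP2sh1 over control at day 0 against the mean CPM of the 6 libraries (log axis) for the 19536 genes tested. Red points are the 1613 genes called higher, blue points the 1677 called lower and grey points those not called. The called genes reach smaller changes at higher levels, and MMP2 lies apart as the gene of high level with the largest fall.

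The falls with the smallest p after that of MMP2 were in secreted and membrane proteins and in regulators of transcription and ubiquitination. COL3A1, the chain of the fibrillar collagen type III, was at 91.2, 87.2 and 89.5 CPM in the control libraries and at 26.7, 25.4 and 33.1 CPM in MMP2sh1. Every MMP2sh1 library was far under the lowest control library (log2 fold change −1.66, standard error 0.07, adjusted p = 1.8e-18). F2RL2, a receptor cleaved by thrombin, was at 58.1, 60.3 and 57.4 CPM in the control libraries and at 23.2, 23.6 and 21.3 CPM in MMP2sh1, and the groups were separated by a wide gap (log2 fold change −1.37, standard error 0.07, adjusted p = 1.0e-16). NOV, a secreted matricellular protein of the CCN family, was at 182, 168 and 153 CPM in the control libraries and at 80.5, 76.6 and 82.004 CPM in MMP2sh1. The control libraries spread more than those of MMP2sh1, and the lowest of them was still well above (log2 fold change −1.08, standard error 0.05, adjusted p = 1.4e-16). ZNF503, a transcriptional repressor, fell by a similar amount, from 54.9 ± 2.66 to 25.3 ± 0.371 CPM (SD, n = 3) (log2 fold change −1.12, standard error 0.06, adjusted p = 1.2e-14). WSB2, a subunit that recruits substrates to a ubiquitin ligase, fell from 116 ± 2.07 to 62.9 ± 2.46 CPM (SD, n = 3) (log2 fold change −0.88, standard error 0.05, adjusted p = 5.7e-15).

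On the rising side TGFBI, a secreted matrix protein induced by TGF-beta that binds integrins, was at 131, 134 and 143 CPM in the control libraries and at 265, 258 and 254 CPM in MMP2sh1. Each MMP2sh1 library was well above each control library (log2 fold change 0.93, standard error 0.04, adjusted p = 2.8e-17). ANO2, a calcium-activated chloride channel, was at 19.4, 26.2 and 23.8 CPM in the control libraries and at 64.8, 70.1 and 66.98 CPM in MMP2sh1, with no overlap (log2 fold change 1.54, standard error 0.08, adjusted p = 1.4e-16). INHBA, which encodes the subunit of activin A, was at 74.7, 75.4 and 77.2 CPM in the control libraries and at 131, 133 and 129 CPM in MMP2sh1. Here the replicates of each group lay within a few CPM of each other (log2 fold change 0.78, standard error 0.05, adjusted p = 1.8e-14). The adhesion protein AMIGO2 rose from 288 ± 17.3 to 456 ± 17.7 CPM (SD, n = 3; log2 fold change 0.66, adjusted p = 1.0e-13), the hair keratin KRT81 from 598 ± 34.9 to 907 ± 22.9 CPM (0.60, adjusted p = 1.0e-13), and BEX1 from 39.6 ± 3.401 to 75.2 ± 0.608 CPM (0.93, adjusted p = 1.9e-13).

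**Figure D2:**
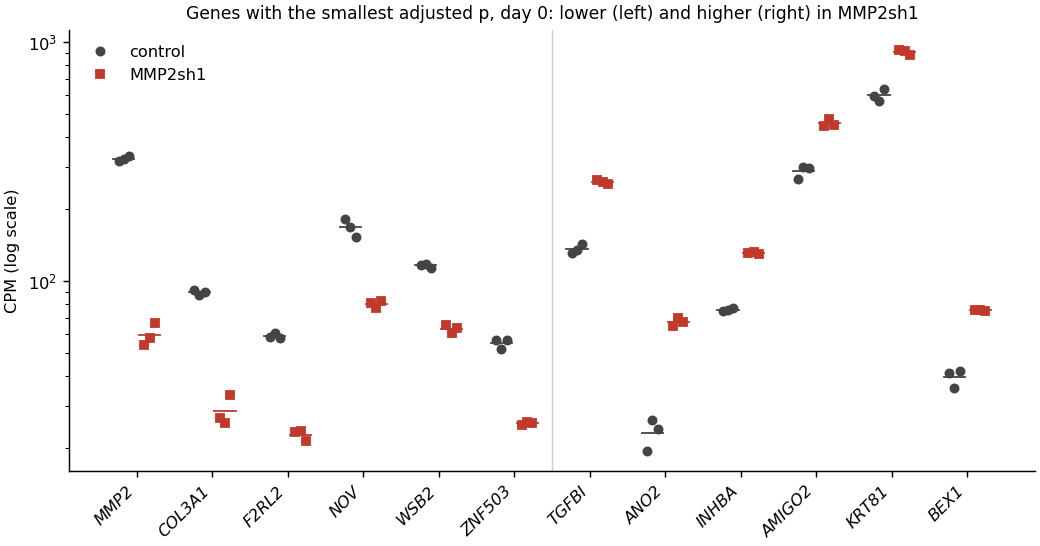
CPM (log axis) in each control library (grey circles) and MMP2sh1 library (red squares) at day 0, with a bar at each group's mean, for the 6 lower and 6 higher genes with the smallest adjusted p among genes that met the rule for naming. In each gene all 3 libraries of a line lie on 1 side of all 3 of the other.

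Among genes of at least 2 CPM in the higher group and without overlap, the largest falls were in MS4A15 and MMP2, and most of the others were in genes of low level. MS4A15, a membrane-spanning protein, was at 2.43, 1.96 and 2.12 CPM in the control libraries and at 0.298, 0.345 and 0.238 CPM in MMP2sh1. It was near the limit of detection in every MMP2sh1 library (log2 fold change −2.87, standard error 0.37, adjusted p = 4.9e-07). PI15, a secreted protease inhibitor, was at 14.6, 12.2 and 10.5 CPM in the control libraries and at 3.27, 2.37 and 2.23 CPM in MMP2sh1, with all values of MMP2sh1 far under the lowest control value (log2 fold change −2.22, standard error 0.16, adjusted p = 1.1e-12). SOX2, the stem cell transcription factor, was at 15.6, 12.2 and 17.01 CPM in the control libraries and at 4.497, 4.83 and 4.93 CPM in MMP2sh1, and its MMP2sh1 values were close together and far below the control (log2 fold change −1.66, standard error 0.13, adjusted p = 7.2e-12). KIF26B, an unconventional kinesin that acts in cell polarity and adhesion, fell from 12.6 ± 1.45 to 3.52 ± 1.08 CPM (SD, n = 3; −1.86, adjusted p = 5.2e-11), and ST8SIA1, the synthase of ganglioside GD3, from 24.2 ± 2.94 to 8.41 ± 1.14 CPM (−1.53, adjusted p = 7.7e-13). The heparan sulfate editing enzyme SULF1 (−1.53, adjusted p = 6.5e-06), the neurotrophin receptor NTRK3 (−1.64, adjusted p = 1.1e-06), the synaptic adhesion protein SLITRK6 (−1.54, adjusted p = 7.4e-06), the cytoskeletal protein ADD2 (−1.78, adjusted p = 2.7e-04) and BZRAP1 (−2.10, adjusted p = 9.9e-06) fell as well.

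Most of the largest rises were in genes of low level too. GPR132, a G protein-coupled receptor, was at 0.779, 1.096 and 0.39 CPM in the control libraries and at 3.98, 3.25 and 4.48 CPM in MMP2sh1, and even the lowest MMP2sh1 library was far above the highest control library (log2 fold change 2.35, standard error 0.28, adjusted p = 1.6e-07). DIO2, the deiodinase that makes active thyroid hormone, was at 2.43, 2.97 and 2.39 CPM in the control libraries and at 10.004, 10.6 and 8.82 CPM in MMP2sh1. Its groups were far apart (log2 fold change 1.91, standard error 0.15, adjusted p = 1.8e-11). TRPV6, a calcium channel of epithelia, lies in the run of neighbouring genes with the highest median and was at 3.07, 2.99 and 3.24 CPM in the control libraries and at 8.12, 9.41 and 8.76 CPM in MMP2sh1, again with no overlap (log2 fold change 1.49, standard error 0.15, adjusted p = 2.7e-09). The hair keratins KRT34 (1.61, adjusted p = 2.1e-08) and KRT33B (1.61, adjusted p = 2.5e-05), the muscle ankyrin protein ANKRD2 (1.59, adjusted p = 1.2e-05), the transcription factor ZBED2 (2.54, adjusted p = 2.2e-05), the GTPase-activating protein ARHGAP22 (2.03, adjusted p = 6.4e-05), AFAP1L2 (1.56, adjusted p = 4.1e-05), C4orf26 (1.96, adjusted p = 1.1e-06), the secreted glycoprotein PAEP (1.57, adjusted p = 1.2e-04) and the cell surface antigen GPA33 (1.76, adjusted p = 0.0013) rose too. CGB5 (2.10, adjusted p = 1.4e-05) and HLA-V (2.34, adjusted p = 1.9e-05) belong to families of near-identical genes, between which reads may be split, and their values are uncertain.

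**Figure D3:**
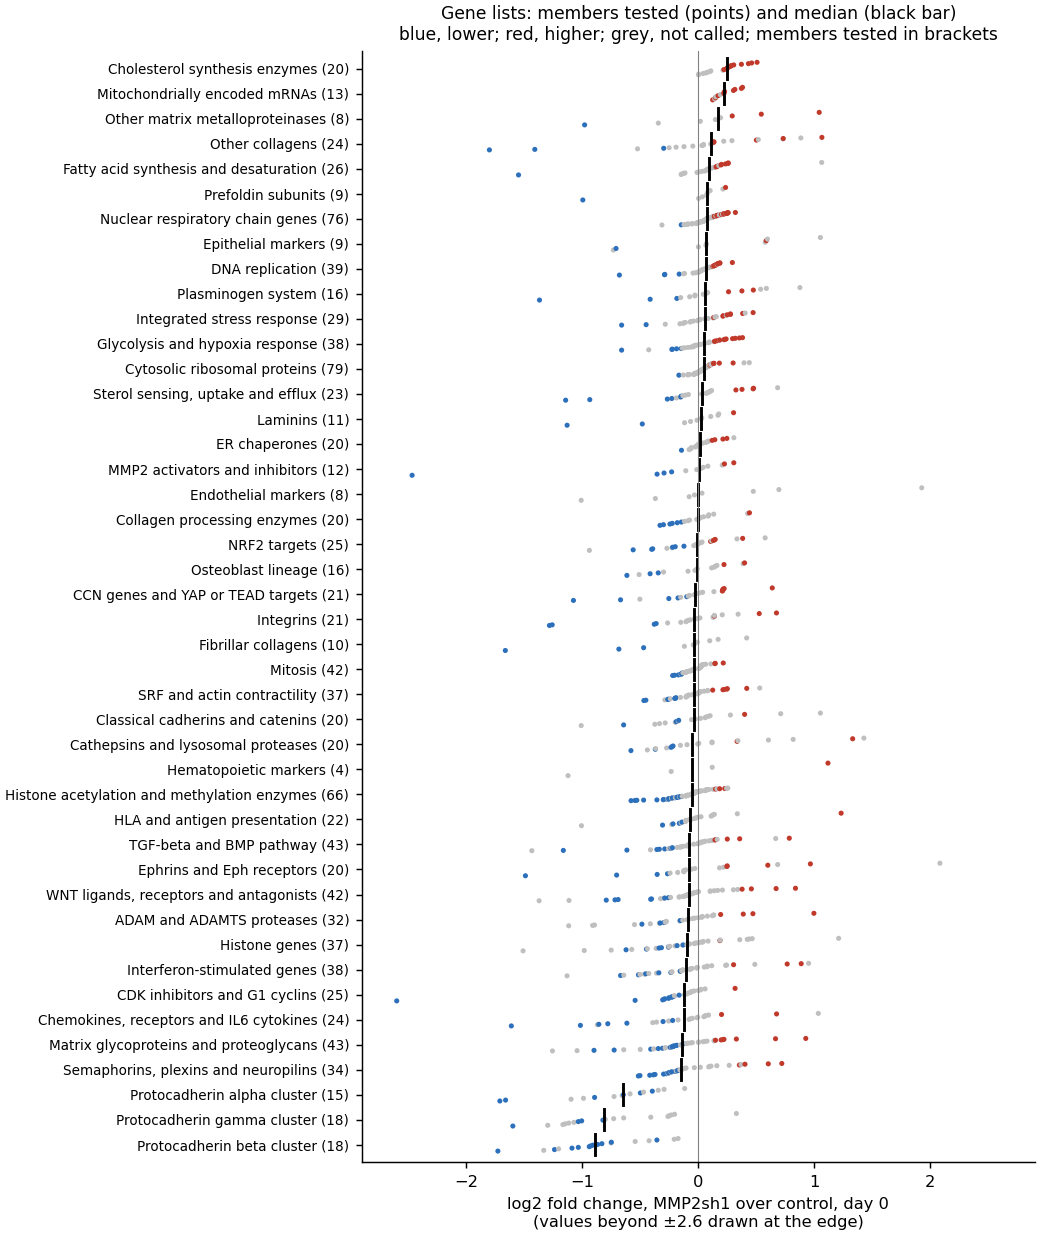
Log2 fold changes of MMP2sh1 over control at day 0 for the tested members of each gene list, with members called higher in red, called lower in blue and not called in grey, and the median as a black bar. CDKN2B is drawn at the left edge. The 3 protocadherin lists lie lowest and the cholesterol synthesis enzymes highest.

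Proteases of the pericellular space went both ways. Of 19 other matrix metalloproteinases 8 passed the filter, with a median log2 fold change of 0.17 against −0.00 over all genes tested. MMP3 (stromelysin 1) was at 3.42, 3.87 and 3.63 CPM in the control libraries and at 8.201, 6.11 and 8.23 CPM in MMP2sh1. Each MMP2sh1 value was well above the control values (log2 fold change 1.04, standard error 0.16, adjusted p = 7.3e-06). MMP9, the other gelatinase, rose from 4.95 ± 0.778 to 7.25 ± 0.513 CPM (SD, n = 3; 0.54, adjusted p = 0.0084), a call lost without replicate 2 of the control, and MMP24, a membrane-type enzyme, from 40.6 ± 3.99 to 49.9 ± 2.78 CPM (0.29, adjusted p = 0.0019). MMP7 (matrilysin) fell from 5.05 ± 1.104 to 2.58 ± 0.407 CPM (−0.98, adjusted p = 4.2e-04), which was not called in a fit of all 27 libraries. In the plasminogen and thrombin system, 16 of 20 genes passed, 3 were called higher and 3 lower, and the median was 0.06. The tissue factor pathway inhibitor TFPI rose (0.47, adjusted p = 7.5e-05), as did PROCR (0.26, adjusted p = 0.0094), whose call was lost without replicate 1 of MMP2sh1 or replicate 3 of the control. The thrombin receptor F2R (−0.41, adjusted p = 1.4e-07) and ANXA2, a plasminogen receptor (−0.18, adjusted p = 2.5e-05), fell with F2RL2. The activators PLAU (0.04) and PLAT (0.08) were not called.

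The cathepsins that changed were lower and the cystatins that changed were higher. Of 22 cathepsins, other lysosomal proteases and cystatins 20 passed, 5 were called lower and 2 higher (median −0.05). CTSB, a cysteine protease that the study also followed, was at 969, 973 and 976 CPM in the control libraries and at 639, 641 and 678 CPM in MMP2sh1. The 3 values of each line were close together and did not overlap (log2 fold change −0.58, standard error 0.03, adjusted p = 2.2e-14). CTSL, CTSA, CTSD and CTSF fell by less, with log2 fold changes of −0.23, −0.22, −0.23 and −0.37 (adjusted p of 7.9e-04, 0.0021, 0.004 and 0.011), where CTSD was not called without replicate 3 of the control and CTSF not without replicate 1 of MMP2sh1. The genes that rose, CSTB (0.33, adjusted p = 3.1e-06) and CST6 (1.33, adjusted p = 0.0031), encode inhibitors of cysteine cathepsins such as CTSB, not of all 5 genes that fell. Among 35 ADAM and ADAMTS proteases, which shed membrane proteins and cleave proteoglycans, 32 passed, 4 rose and 4 fell (median −0.09). The share called was 25%, against 16.8% of all genes tested and 20.9% of protein-coding ones. ADAMTS6 (0.47, adjusted p = 1.0e-05) and ADAM28 (0.997, adjusted p = 0.0026) rose most and ADAMTS10 (−0.49, adjusted p = 2.5e-05) and the sheddase ADAM17 (−0.30, adjusted p = 0.0019) fell. Without replicate 1 of MMP2sh1, 2 of this list fell.

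Of 11 fibrillar collagen genes 10 passed, 3 were called, all lower, and the median was −0.04. Besides COL3A1, COL5A2 fell from 168 ± 4.01 to 121 ± 5.55 CPM (SD, n = 3; −0.47, adjusted p = 1.1e-09) and COL5A3 from 6.19 ± 1.53 to 3.86 ± 0.333 CPM (−0.68, adjusted p = 0.0041), a call that was lost without replicate 3 of the control. COL1A1, the main chain of type I collagen, was at 1224, 1320.000 and 1317 CPM in the control libraries and at 1142, 1239.7 and 1414 CPM in MMP2sh1, and these values overlapped (log2 fold change −0.03, adjusted p = 0.76). Of 31 other collagens 24 passed, 5 rose and 3 fell (median 0.11). COL8A1, a short-chain collagen of vessel walls, was at 37.2, 34.1 and 34.99 CPM in the control libraries and at 45.2, 52.1 and 53.996 CPM in MMP2sh1, and COL13A1, a transmembrane collagen, at 10.03, 8.47 and 9.94 CPM in the control libraries and at 14.3, 17.5 and 15.7 CPM in MMP2sh1. Both were higher in every MMP2sh1 library than in any control library (log2 fold changes 0.50, adjusted p = 1.3e-06, and 0.73, adjusted p = 4.6e-06). COL17A1, a hemidesmosome component, rose (1.07, adjusted p = 1.3e-05) and COL14A1 fell (−1.41, adjusted p = 0.0024). The counts of this list rested on single libraries, with 3 rising without replicate 2 or 3 of MMP2sh1 or replicate 1 of the control, and 1 falling without replicate 2 of MMP2sh1, with DESeq2 or in the fit of all 27 libraries. Enzymes that modify and crosslink collagen showed 6 falls and 1 rise among 20 genes, all of which passed (median −0.01). The lysyl hydroxylase PLOD2 (−0.33, adjusted p = 2.8e-06), the crosslinking oxidase LOXL1 (−0.30, adjusted p = 1.2e-04), the prolyl hydroxylase LEPREL1 (−0.24, adjusted p = 0.0026), the procollagen protease enhancer PCOLCE (−0.22, adjusted p = 0.0024) and the collagen chaperone SERPINH1 (−0.18, adjusted p = 0.0014) fell, while PCOLCE2 rose (0.44, adjusted p = 1.4e-04).

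Of 50 matrix glycoproteins and proteoglycans 43 passed, 7 were called higher and 13 lower, and the median was −0.14. FBN2, a fibrillin of elastic microfibrils, was at 145, 178 and 167 CPM in the control libraries and at 96.4, 101 and 99.5 CPM in MMP2sh1. No MMP2sh1 value came near the control values (log2 fold change −0.73, standard error 0.05, adjusted p = 4.2e-12). NID1, which links laminin to collagen IV in basement membranes, was at 167, 179 and 170.3 CPM in the control libraries and at 125, 125 and 140.1 CPM in MMP2sh1 and also did not overlap (log2 fold change −0.41, standard error 0.05, adjusted p = 7.1e-08). The latent TGF-beta binding proteins LTBP1 (−0.34, adjusted p = 3.9e-05) and LTBP3 (−0.31, adjusted p = 1.9e-05), the glypican GPC1 (−0.22, adjusted p = 8.0e-05), MFAP2 (−0.21, adjusted p = 0.002) and FBLN1 (−0.19, adjusted p = 0.001) fell. FN1, fibronectin, was at 828, 987 and 877 CPM in the control libraries and at 694, 748 and 869 CPM in MMP2sh1. The highest MMP2sh1 value lay above the lowest control value, and the call (−0.23, adjusted p = 0.0026) was lost with DESeq2, in the fit of all 27 libraries and without replicate 1 of MMP2sh1. Beside TGFBI, the genes that rose were SPARC (0.22, adjusted p = 1.0e-05), THBS1 (0.21, adjusted p = 7.2e-05), MFAP5 (0.67, adjusted p = 3.1e-06), MATN2 (0.33, adjusted p = 0.001), SDC2 (0.20, adjusted p = 0.0047) and LTBP2 (0.15, adjusted p = 0.0068), the last of which was not called without replicate 3 of MMP2sh1 or replicate 1 of the control or in the fit of all 27 libraries. Without replicate 1 of MMP2sh1, 8 genes of this list fell. Among 11 laminin chains, all tested (median 0.03), LAMA4, a chain of vessel and muscle basement membranes, was at 33.2, 37.7 and 36.1 CPM in the control libraries and at 16.1, 15.9 and 17.05 CPM in MMP2sh1. Its level was far lower in each MMP2sh1 library (log2 fold change −1.13, standard error 0.08, adjusted p = 7.5e-13). LAMB2 fell as well, from 160.3 ± 2.697 to 115 ± 7.404 CPM (SD, n = 3; −0.48, adjusted p = 1.9e-09). In all 1 laminin gene rose and 2 fell, with 2 rises without replicate 1 of MMP2sh1 or replicate 2 of the control and 0 without replicate 1 of the control.

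Of 22 CCN genes and genes known as targets or partners of YAP and TEAD, 21 passed, 6 rose and 5 fell (median −0.03). CTGF was at 142, 146 and 159 CPM in the control libraries and at 217, 240.4 and 241 CPM in MMP2sh1, opposite in direction to its family member NOV and with no overlap (log2 fold change 0.64, standard error 0.05, adjusted p = 2.8e-12). CYR61 (0.21, adjusted p = 3.7e-04), AXL (0.21, adjusted p = 3.4e-05), AJUBA (0.21, adjusted p = 6.8e-04) and CRIM1 (0.21, adjusted p = 2.5e-04) rose by less, and the cofactor WWTR1 (TAZ) fell (−0.25, adjusted p = 0.0029). YAP1 (0.04) and ANKRD1 (−0.08) were not called. Of the 5 falls 2 were called without replicate 2 of MMP2sh1 and 3 without replicate 1 of MMP2sh1 or replicate 1 or 3 of the control. All 21 integrins tested gave 3 rises and 4 falls (median −0.03). ITGB1, the common beta chain of collagen, laminin and fibronectin receptors, was at 1264, 1289 and 1202 CPM in the control libraries and at 972, 978 and 976 CPM in MMP2sh1. Its MMP2sh1 values were nearly equal and all under the control (log2 fold change −0.36, standard error 0.03, adjusted p = 9.6e-10). ITGA6 (−0.38, adjusted p = 3.1e-06), a laminin receptor chain, and ITGA11 (−1.26, adjusted p = 1.8e-06), a collagen receptor chain, fell, and ITGA2, another collagen receptor chain, rose (0.53, adjusted p = 1.1e-05). ITGB2, the beta chain of leukocyte integrins, was at 20.4, 21.6 and 25.5 CPM in the control libraries and at 36.4, 35.6 and 35.6 CPM in MMP2sh1 and was higher without overlap (log2 fold change 0.67, standard error 0.08, adjusted p = 6.7e-08).

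The clustered protocadherins had the lowest medians of all lists. They are neuronal adhesion proteins encoded by 3 gene clusters side by side on chromosome 5, where each alpha and gamma gene has its own promoter and variable exon ahead of shared exons and each beta gene is a single exon. Most promoters of the beta genes share a short word, which is shown as a description of their sequence. The lines give 30 bases around it, 5′ to 3′ on the plus strand, from RefSeq promoters on GRCh38.p14, with the word in capitals. The first 6 genes were called lower and the last 2 were not called.
PCDHB2, chr5:141094545-141094574: agagacgcggGGTGGCGCTgcagccttaga
PCDHB8, chr5:141177778-141177807: gaggacccgtGGTGGCGCTgcaggataaga
PCDHB16, chr5:141182311-141182340: gagaacgcgtGGTGGCGCTgcaggttaaga
PCDHB10, chr5:141192300-141192329: gaggccacacGGTGGCGCTgcaggctaaag
PCDHB13, chr5:141213866-141213895: gaggacgcgtGGTGGCGCTgcaggataaga
PCDHB15, chr5:141245315-141245344: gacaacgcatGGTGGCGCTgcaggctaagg
PCDHB4, chr5:141121724-141121753: caagacgcagGGTGGCGCTgcaggctaagt
PCDHB9, chr5:141187075-141187104: gaagccacaaGGTGGCGCTgcagactgaag
The word GGTGGCGCT, searched on both strands (AGCGCCACC on the other), was in 13 of 14 beta promoters (92.9%), in 0 of 13 alpha and 0 of 19 gamma promoters, and in 176 of all 35116 promoters of the same length (0.501%). It was chosen after the beta promoters had been read, as the word of 9 bases that most of them held. That choice set its share among them, and nothing is read from it. The word lay 2 to 84 bases before the start. It stood in the promoters of 9 genes that were called lower and in those of PCDHB3, PCDHB4, PCDHB7 and PCDHB9, which were not called.

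Of 19 beta genes 18 passed the filter, 11 were called, each lower, all 18 log2 fold changes were below 0, and the median was −0.89. PCDHB8 was at 17.9, 17.9 and 15.01 CPM in the control libraries and at 8.33, 9.56 and 9.33 CPM in MMP2sh1. Each MMP2sh1 value was well under the lowest control value (log2 fold change −0.91, standard error 0.10, adjusted p = 7.0e-08). PCDHB11 was at 13.99, 13.8 and 16.8 CPM in the control libraries and at 7.24, 6.92 and 9.21 CPM in MMP2sh1, without overlap (log2 fold change −0.94, standard error 0.12, adjusted p = 3.1e-07). PCDHB15 was at 2.21, 2.56 and 2.17 CPM in the control libraries and at 0.595, 0.912 and 0.594 CPM in MMP2sh1, the largest fall of the cluster (log2 fold change −1.73, standard error 0.31, adjusted p = 1.1e-04). PCDHB5, the member with most reads, fell least among those called, from 66.9 ± 3.33 to 52.5 ± 5.67 CPM (SD, n = 3; −0.36, adjusted p = 9.3e-05). The other falls, in PCDHB2, PCDHB10, PCDHB12, PCDHB13, PCDHB14, PCDHB16 and PCDHB18, lay between −1.24 and −0.75. With any 1 library left out, 11 or 12 beta genes were called lower. Of 15 alpha genes, all tested, 6 were called lower and all 15 were below 0 (median −0.65), among them PCDHA1 (−1.66, adjusted p = 3.0e-04) and PCDHA10 (−1.71, adjusted p = 0.0017), and without replicate 1 of the control 3 were called. Of 22 gamma genes 21 are in the files and 18 passed, 4 were called lower and 17 were below 0 (median −0.81), with PCDHGB4 (−1.03, adjusted p = 4.6e-04) and PCDHGB1 (−0.82, adjusted p = 0.0049) the clearest. Without replicate 1 of the control 2 gamma genes were called, and with at least 10 counts in every library 7 were. Alpha and gamma counts rest on the variable exons, since reads on the exons that several genes share were discarded in counting.

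Along the genome, the lowest median log2 fold change of 15 neighbouring tested genes was −1.01, from PCDHB10 to PCDHGB3 (chr5:140571926-140892542 on GRCh37), with 10 of the 15 called lower. Overlapping runs shared this median with fewer calls, down to 4 of 15 from PCDHGA1 to PCDHGB7. Over all 15691 such runs the median was 0.00 and the 1st percentile −0.27. TAF7, a subunit of the general transcription factor TFIID that lies between the beta and gamma clusters, was at 80.98, 78.04 and 76.98 CPM in the control libraries and at 67.6, 64.5 and 66.5 CPM in MMP2sh1 and fell by far less than the genes around it (log2 fold change −0.25, standard error 0.05, adjusted p = 5.6e-04). At day −2, where 6.14% of all tested genes were called lower, 9 of 17 tested beta genes were called lower and 16 were below 0, and at day +2, where 7.11% were, 8 of 18 were called lower and 15 were below 0. Of 18 gamma genes 2 were called lower at day −2 (median −0.75). At day +2, 0 of 17 gamma genes were called, with 6 above 0 and a median of −0.06. Of the 15 alpha genes 0 were called at day −2 (median −0.15, 10 below 0) and 0 at day +2 (median −0.11, 13 below 0). In each of the cases with 0 calls edgeR gave 2 genes an unadjusted p under 0.05 and DESeq2 called 0. The highest run, with a median of 0.63 that an overlapping run from MGAM to EPHA1-AS1 shared, lies on chromosome 7 from PRSS1 to FAM115B. Of its 15 genes 8 were under 2 CPM in both lines, 7 were called higher and ZYX was called lower (−0.23, adjusted p = 1.6e-04). Those called higher were PRSS1, the pseudogenes PRSS3P1 and PRSS3P2, EPHB6, TRPV6, CASP2 (0.30, adjusted p = 5.1e-04) and GSTK1 (0.22, adjusted p = 0.016). PRSS3P1, PRSS3P2 and EPHA1 passed the filter through the MMP2sh1 libraries, where they are high. They enter the median of the run, and nothing is read from their rises. The 99th percentile of the runs was 0.18.

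Of 21 classical cadherins and catenins 20 passed, with 1 rise and 3 falls (median −0.04), and 2 rises without replicate 1 or 3 of the control. The share called was 20%, against 16.8% of all genes tested and 20.9% of protein-coding ones. CDH11, the osteoblast cadherin, was at 38.2, 39.3 and 37.97 CPM in the control libraries and at 22.5, 26.6 and 25.2 CPM in MMP2sh1. It was lower in each MMP2sh1 library (log2 fold change −0.64, standard error 0.07, adjusted p = 4.5e-08). CDH4 rose from 50.4 ± 1.298 to 66.8 ± 5.12 CPM (SD, n = 3; 0.40, adjusted p = 5.9e-06), and CDH2, the N-cadherin, was not called (0.10). Of 22 ephrins and Eph receptors, which signal between touching cells, 20 passed, 4 rose and 4 fell (median −0.08). EFNA2 was at 13.1, 15.3 and 13.8 CPM in the control libraries and at 4.41, 5.81 and 4.901 CPM in MMP2sh1, with the MMP2sh1 values far under the control values (log2 fold change −1.49, standard error 0.12, adjusted p = 5.3e-11). EPHA4 fell (−0.70, adjusted p = 0.0023) and EPHB1 rose (0.97, adjusted p = 2.3e-04), as did EPHB2 (0.25, adjusted p = 1.3e-04). Semaphorins, plexins, neuropilins and the Slit and Robo genes steer axons and migrating cells. Of 37 genes 34 passed, 13 fell and 4 rose (median −0.15). SEMA3C was at 129.6, 135 and 126 CPM in the control libraries and at 94.7, 96.3 and 102 CPM in MMP2sh1 and did not overlap (log2 fold change −0.42, standard error 0.05, adjusted p = 4.5e-08). SEMA3A (−0.52, adjusted p = 3.7e-04), SEMA3E (−0.39, adjusted p = 5.5e-05), the receptor ROBO1 (−0.37, adjusted p = 1.9e-06), NRP1 (−0.26, adjusted p = 6.2e-04) and PLXNB1 (−0.28, adjusted p = 0.0011) also fell, and SEMA7A (0.60, adjusted p = 6.2e-08), SEMA6A (0.40, adjusted p = 0.003) and PLXNA4 (0.72, adjusted p = 0.0047) rose.

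In the TGF-beta and BMP pathway, 43 of 46 genes passed, 5 rose and 7 fell (median −0.08). Among the ligands INHBA rose, and BMP2 (−0.62, adjusted p = 0.002), GDF11 (−0.34, adjusted p = 6.2e-05) and the stress cytokine GDF15 (−1.16, adjusted p = 3.2e-05) fell. The antagonists NOG, which binds BMPs, and FST, which binds activin, fell (−0.36, adjusted p = 1.5e-05, and −0.29, adjusted p = 0.0013). Of the 5 rises 2 or 3 were called without any 1 library of MMP2sh1 or without replicate 1 of the control. Of 52 WNT genes 42 passed, 4 rose and 7 fell (median −0.08). SFRP1, a secreted WNT antagonist, was at 87.8, 79.7 and 83.4 CPM in the control libraries and at 50.5, 50.1 and 52.3 CPM in MMP2sh1. The groups were well apart (log2 fold change −0.72, standard error 0.05, adjusted p = 6.0e-12). RNF43, a ubiquitin ligase that removes WNT receptors, was at 21.3, 20.1 and 19.3 CPM in the control libraries and at 12.5, 12.6 and 12.6 CPM in MMP2sh1, likewise without overlap (log2 fold change −0.69, standard error 0.09, adjusted p = 6.9e-07). Among the ligands WNT7B (0.84, adjusted p = 2.1e-04), WNT5B (0.67, adjusted p = 6.4e-04) and WNT3 (0.38, adjusted p = 0.0029) rose, and the receptors ROR1 (−0.40, adjusted p = 1.0e-05) and FZD2 (−0.26, adjusted p = 9.3e-04) fell. The transcriptional readouts AXIN2 (−0.13), LEF1 (−0.00) and NKD1 (−0.30) were not called. Without replicate 1 of the control 4 WNT genes fell.

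Of 38 chemokines, their receptors and cytokines of the IL6 family 24 passed, 2 rose and 7 fell (median −0.13). CXCL14 was at 406, 366 and 408 CPM in the control libraries and at 245, 244 and 283 CPM in MMP2sh1. Every MMP2sh1 library was far under the control (log2 fold change −0.62, standard error 0.05, adjusted p = 8.8e-12). ACKR3, a scavenging receptor for CXCL12, was at 36.7, 35.3 and 36.3 CPM in the control libraries and at 19.6, 19.6 and 20.8 CPM in MMP2sh1, with near-equal replicates and no overlap (log2 fold change −0.86, standard error 0.07, adjusted p = 8.0e-11). CSF1, the growth factor of macrophages and osteoclasts, fell from 34.6 ± 2.18 to 20.3 ± 1.11 CPM (SD, n = 3; −0.78, adjusted p = 2.5e-09) and CCL26 from 6.63 ± 1.01 to 3.25 ± 0.539 CPM (−1.02, adjusted p = 3.5e-05). The receptors LIFR (−0.30, adjusted p = 3.8e-04) and OSMR (−0.22, adjusted p = 8.5e-04) fell. The rises were in LIF (0.20, adjusted p = 0.0055), not called without replicate 1 of the control, and IL6R (0.68, adjusted p = 0.013), not called without replicate 1 of MMP2sh1. Of 43 interferon-stimulated genes 38 passed, 6 fell and 3 rose (median −0.10). IFIT1 (−0.67, adjusted p = 1.3e-05), TRIM22 (−0.52, adjusted p = 6.9e-06), STAT2 (−0.34, adjusted p = 3.5e-05) and the RNA sensor DDX58 (−0.45, adjusted p = 0.0033) fell, and 1 of the rises was called without replicate 1 of MMP2sh1, without replicate 2 of the control or in the fit of all 27 libraries. Of 28 HLA and antigen presentation genes 22 passed, 4 fell and 1 rose (median −0.07, 22.7% called against 16.8% of all genes tested and 20.9% of protein-coding ones). TAP1 (−0.31, adjusted p = 0.0058), a peptide transporter, was lower and HLA-DPA1 (1.23, adjusted p = 0.0031), at under 3 CPM, higher. HLA genes are alike in part and can share reads. Without replicate 1 of MMP2sh1, 2 of these fell.

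Among the enzymes of cholesterol synthesis every call was a rise. All 20 passed the filter, 12 were called, each higher, all 20 log2 fold changes were above 0, and the median was 0.25. HMGCS1, which makes the precursor of mevalonate, was at 109.5, 103 and 102 CPM in the control libraries and at 146, 142 and 137 CPM in MMP2sh1. All MMP2sh1 values were above all control values (log2 fold change 0.43, standard error 0.05, adjusted p = 1.7e-08). DHCR7, the last step of cholesterol synthesis, was at 99.97, 101 and 101 CPM in the control libraries and at 132, 139 and 145 CPM in MMP2sh1, with no overlap (log2 fold change 0.46, standard error 0.05, adjusted p = 3.4e-09). MSMO1, a sterol demethylase, had the largest rise of the list (log2 fold change 0.51, standard error 0.06, adjusted p = 1.5e-07), and SQLE, the squalene epoxidase, rose by 0.31 (adjusted p = 2.2e-06). In the regulators and transporters of sterols, 23 of 25 genes passed, 4 rose and 6 fell (median 0.03). The SREBP retention protein INSIG1 rose (0.48, adjusted p = 3.6e-07), as did the sterol carrier STARD4 (0.38, adjusted p = 9.1e-07), the HDL receptor SCARB1 (0.32, adjusted p = 8.7e-06) and VLDLR (0.47, adjusted p = 6.6e-05). ABCG1, which exports cholesterol to HDL, was at 31.6, 31.7 and 31.3 CPM in the control libraries and at 16.3, 14.1 and 19.2 CPM in MMP2sh1. Its highest MMP2sh1 value was far under its lowest control value (log2 fold change −0.94, standard error 0.09, adjusted p = 8.4e-10). SREBF2, the transcription factor of this pathway, was slightly lower (−0.15, adjusted p = 0.0048). The motif TCACNCCAC, a form of the sterol regulatory element, was searched on both strands of promoters of 300 bases from RefSeq. It was in 0 of the 15 cholesterol enzyme promoters given and in 396 of all 35116 (1.128%). Of 21 promoters of the sterol regulators and transporters 1 held it, that of SREBF2. These counts say only whether these letters are in those windows.

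Of 29 genes of fatty acid synthesis 26 passed, 8 rose and 1 fell (median 0.09). ACACA (0.23, adjusted p = 1.1e-04), ACLY (0.20, adjusted p = 3.2e-04), SCD (0.20, adjusted p = 2.5e-04), ELOVL1 (0.26, adjusted p = 2.6e-04) and FASN (0.16, adjusted p = 0.0012), which make and desaturate fatty acids, rose. The gene that fell, LPCAT2, a lysophospholipid acyltransferase, lies next to MMP2, from 55542984 to 55620578 on chromosome 16 of GRCh37 and also on the plus strand. It was at 2.404, 0.924 and 2.56 CPM in the control libraries and at 0.595, 0.764 and 0.653 CPM in MMP2sh1 and did not overlap (log2 fold change −1.55, standard error 0.36, adjusted p = 0.0023). LPCAT2 was also lower in subconfluent cells, with a log2 fold change of −2.72 (adjusted p = 3.7e-04), and past confluence, with −0.93 (adjusted p = 0.023). The other neighbours of MMP2 that were tested, CRNDE, IRX5, IRX6, CES5A and GNAO1, were not called. Of 39 glycolysis and hypoxia genes 38 passed, 11 rose and 5 fell (median 0.05). The enzymes HK2 (0.32, adjusted p = 0.0031), PFKP (0.24, adjusted p = 6.2e-04), PGAM1 (0.22, adjusted p = 2.6e-05) and ENO1 (0.17, adjusted p = 1.2e-04) rose, and PKM (−0.15, adjusted p = 3.4e-04) fell. The hypoxia and stress gene DDIT4 fell (−0.66, adjusted p = 2.0e-05), and VEGFA (−0.06) and GAPDH (−0.03) were not called. Without replicate 3 of MMP2sh1 7 rose, and without replicate 1 of the control or in the fit of all 27 libraries 3 fell.

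Cyclin D1 and inhibitors of the cyclin-dependent kinases were lower. Of 26 CDK inhibitors, G1 cyclins and RB and E2F genes 25 passed, 11 fell and 1 rose (median −0.12). CCND1, cyclin D1, was at 308, 293 and 295 CPM in the control libraries and at 201, 206 and 209 CPM in MMP2sh1. The highest MMP2sh1 value was far under the lowest control value (log2 fold change −0.54, standard error 0.04, adjusted p = 2.8e-12). CCND2 was at 142, 138 and 135 CPM in the control libraries and at 169.9, 178 and 171 CPM in MMP2sh1 and rose (log2 fold change 0.32, standard error 0.04, adjusted p = 1.6e-06). The inhibitors CDKN1A (p21; −0.29, adjusted p = 1.9e-05) and CDKN1B (p27; −0.30, adjusted p = 7.2e-05) fell, as did CCNE1 (−0.25, adjusted p = 0.0012), CDK6 (−0.23, adjusted p = 3.6e-04) and RB1 (−0.26, adjusted p = 8.8e-04). CDKN2B, which encodes the inhibitor p15, had 38, 13 and 30 reads in the control libraries and 0, 0 and 1 in MMP2sh1. Scaled for library size the control held 81.6 times as many reads, with an exact 95% interval of 14.2 to 3260 that covers counting error only, and the call had an adjusted p of 6.2e-05. CDKN2B passed the filter through the control libraries, where it is high, so nothing is read from this ratio or call. CDKN2B also had 26, 22 and 23 reads in the control and 4, 1 and 0 in MMP2sh1 at day +2, and it had none in the 3 MMP2sh2 libraries of day 0. At day −2 it had 4, 1 and 1 reads in the control and 0, 0 and 1 in MMP2sh1. The MMP2sh2 libraries of day +2 had 1, 8 and 0.

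Changes in proliferation genes were small. Of 39 DNA replication genes, all tested, 11 rose and 4 fell (median 0.06), and the largest rise was in GINS1. GINS1 (0.29, adjusted p = 6.9e-05) and the helicase subunits MCM4 (0.17, adjusted p = 9.6e-04) and MCM6 (0.19, adjusted p = 9.0e-04) rose. RRM2, the regulated subunit of ribonucleotide reductase, fell from 441 ± 5.26 to 361 ± 7.54 CPM (SD, n = 3; −0.29, adjusted p = 5.0e-07) and MCM3 from 361 ± 12.6 to 295 ± 6.29 CPM (−0.29, adjusted p = 1.2e-06). There were 7 rises without replicate 1 or 2 of MMP2sh1 or replicate 3 of the control and 6 in the fit of all 27 libraries. Of 42 mitosis genes, all tested, 3 rose and 8 fell (median −0.04, 26.2% called against 16.8% of all genes tested and 20.9% of protein-coding ones). By level, 23.2% of genes at 10 to 100 CPM and 35.2% of those over 100 CPM were called, so nothing is read from that share. PLK1 (−0.22, adjusted p = 2.6e-04), a mitotic kinase, was lower and MKI67 (−0.04) and CCNB1 (−0.06) were not called. There were 4 falls without replicate 2 of MMP2sh1 or replicate 1 of the control and 3 in the fit of all 27 libraries, and 1 rise without replicate 1 of MMP2sh1 or of the control.

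RFC5, a further member of the DNA replication list that fell, and WSB2 are neighbours that overlap at their ends on chromosome 12 of GRCh37, RFC5 from 118451393 to 118470935 on the plus strand and WSB2 from 118470492 to 118500235 on the minus strand. RFC5, a subunit of the clamp loader, was at 61.3, 62.8 and 60.04 CPM in the control libraries and at 39.5, 38.1 and 37.5 CPM in MMP2sh1. Both genes were lower in every library (log2 fold change −0.68, standard error 0.06, adjusted p = 1.3e-10 for RFC5). They were lower at the other days too, with log2 fold changes at days −2 and +2 of −0.71 and −0.85 for WSB2 and −0.80 and −0.71 for RFC5. The nearest tested genes on either side, NOS1 (−0.04), KSR2 (0.24), VSIG10 (−0.00), PEBP1 (0.10) and TAOK3 (−0.32), were not called. Reads on the stretch that RFC5 and WSB2 share went to neither of them. PFDN1 (chr5:139624620-139682698 on GRCh37), a subunit of the prefoldin chaperone for actin and tubulin, was at 59.004, 60.4 and 63.4 CPM in the control libraries and at 32.1, 30.6 and 28.96 CPM in MMP2sh1, with all MMP2sh1 values close to 30 CPM (log2 fold change −0.995, standard error 0.06, adjusted p = 9.0e-14). Of 9 prefoldin and related subunits, all tested (median 0.08), URI1 rose (0.24, adjusted p = 2.8e-04) and the other 7 were not called. CYSTM1, which overlaps PFDN1 on the opposite strand, was not called (−0.09), and the neighbouring growth factor gene HBEGF rose (0.51, adjusted p = 0.0029).

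Of 66 enzymes that write and erase histone marks, all tested, 19 fell and 3 rose (median −0.06). The H3K4 demethylase KDM5B was at 67.9, 68.8 and 62.1 CPM in the control libraries and at 43.8, 43.7 and 46.04 CPM in MMP2sh1. All its MMP2sh1 values were under the control (log2 fold change −0.58, standard error 0.06, adjusted p = 4.3e-09). The H3K27 demethylase KDM6B fell from 39.8 ± 1.34 to 27.5 ± 3.22 CPM (SD, n = 3; −0.55, adjusted p = 1.7e-06), and the deacetylase HDAC8 from 24.05 ± 0.781 to 17.3 ± 1.08 CPM (−0.47, adjusted p = 8.3e-05). The acetyltransferases EP300 (−0.25, adjusted p = 1.8e-04) and KAT6B (−0.30, adjusted p = 2.6e-04), the H3K9 methyltransferases EHMT1 (−0.25, adjusted p = 6.2e-04) and EHMT2 (−0.25, adjusted p = 1.0e-04) and the demethylase KDM4A (−0.30, adjusted p = 7.6e-05) fell by less, and KAT2A rose (0.23, adjusted p = 0.0016). EZH2 (−0.06) and KMT2A (−0.06) were not called. Without replicate 2 of MMP2sh1, 12 of the list fell. Of 56 histone genes 37 passed in this poly(A) RNA, 7 fell and 1 rose (median −0.10). The linker histone H1F0, which is not tied to replication, was at 1343, 1223 and 1349.8 CPM in the control libraries and at 1027, 1028 and 1049 CPM in MMP2sh1. It was lower without overlap (log2 fold change −0.34, standard error 0.04, adjusted p = 9.8e-09). HIST2H2BE (−0.62, adjusted p = 2.9e-08), HIST1H2BD (−0.45, adjusted p = 2.8e-04), HIST1H1C (−0.32, adjusted p = 1.1e-05) and H3F3A (−0.18, adjusted p = 0.0015) fell and the variant H2AFZ rose (0.19, adjusted p = 3.7e-04). Near-identical histone genes can share reads.

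In the integrated stress response, all 29 genes were tested, 8 rose and 2 fell (median 0.05). The amino acid transporters SLC7A11 (0.38, adjusted p = 2.2e-06), SLC7A5 (0.28, adjusted p = 1.6e-06) and SLC3A2 (0.25, adjusted p = 9.5e-05) rose together, with EIF4EBP1 (0.28, adjusted p = 2.0e-04), while the transcription factor CEBPB fell (−0.45, adjusted p = 3.3e-08). ATF4 (−0.01), DDIT3 (−0.28) and ASNS (0.13) were not called. Of 20 chaperones of the endoplasmic reticulum, all tested, 4 rose and 1 fell (median 0.01), led by SDF2L1 (0.25, adjusted p = 0.0012) and HSPA5 (0.21, adjusted p = 9.0e-05), with 2 rises without replicate 2 of MMP2sh1, without replicate 1 or 3 of the control or in the fit of all 27 libraries and 6 without replicate 2 of the control. The fall was not called without replicate 1 or 2 of MMP2sh1 or of the control or in the fit of all 27. Targets of NRF2, the regulator of the oxidative stress response, were split, with 25 of 27 tested, 5 higher and 6 lower (median −0.01). HMOX1, heme oxygenase 1, was at 59.1, 51.7 and 52.8 CPM in the control libraries and at 34.4, 38.5 and 38.5 CPM in MMP2sh1. Its groups did not overlap (log2 fold change −0.56, standard error 0.07, adjusted p = 9.1e-08). The ferritin chain FTH1 (−0.39, adjusted p = 3.3e-09), TALDO1 (−0.40, adjusted p = 2.4e-07) and GSR (−0.20, adjusted p = 0.0034) fell with it, and NQO1 (−0.02) and GCLM (0.03) were not called. Of the 5 rises 3 were called without any 1 library other than replicate 1 of the control, and in the fit of all 27. Of 40 SRF targets and actin contractility genes 37 passed, 6 rose and 7 fell (median −0.04). MYH9, the heavy chain of nonmuscle myosin IIA, was at 1676, 1728 and 1720.3 CPM in the control libraries and at 1223, 1241 and 1291 CPM in MMP2sh1. All MMP2sh1 values were far lower (log2 fold change −0.45, standard error 0.03, adjusted p = 1.9e-12). The tropomyosin TPM4 (−0.47, adjusted p = 9.0e-11), the actin gene ACTG1 (−0.26, adjusted p = 6.4e-08) and the filamin FLNA (−0.20, adjusted p = 9.8e-06) fell, and FLNC (0.42, adjusted p = 2.4e-10), TPM1 (0.22, adjusted p = 3.2e-05) and the kinase MYLK (0.25, adjusted p = 3.7e-04) rose.

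Transcripts of the mitochondrial genome were higher. All 13 mRNAs were tested, 10 were called higher and all 13 were above 0 (median 0.22). MT-ND2, a subunit of complex I, was at 1689, 2017 and 1952 CPM in the control libraries and at 2231, 2494 and 2667 CPM in MMP2sh1. The MMP2sh1 values were all higher, though both groups spread widely (log2 fold change 0.38, standard error 0.05, adjusted p = 3.3e-07). MT-ATP6 (0.32, adjusted p = 1.6e-06), which overlaps MT-ATP8, rose as well. In the fit of all 27 libraries 3 of the 13 were called. Mitochondrial genes took 4.67% to 5.42% of the reads on genes in the control libraries and 5.18% to 6.13% in MMP2sh1. These ranges overlap, and the part of this share in the changes of other genes was not tested. Of 76 respiratory chain genes of the nucleus, all tested, 18 rose and 1 fell (median 0.07), with UQCR10 (0.26, adjusted p = 8.2e-04), SDHD (0.25, adjusted p = 2.3e-04) and UQCRFS1 (0.21, adjusted p = 4.9e-04) among the rises. That count was 6 without replicate 2 of MMP2sh1, 11 without replicate 1 of MMP2sh1 or in the fit of all 27, 12, 10 and 22 when control replicates 1, 2 or 3 were left out. The falls were 3 without replicate 2 of the control. Of 79 cytosolic ribosomal proteins, all tested, 7 rose and 1 fell (10.1% called; median 0.05), and from 1, without replicate 2 of MMP2sh1, to 16, without replicate 3 of the control, rose with a library left out. Their number was also 4, 4 and 3 without replicate 1 or 3 of MMP2sh1 or replicate 2 of the control, and 1 in the fit of all 27. Without replicate 2 of the control 6 fell, more than the 3 that rose, and without any 1 library of MMP2sh1 or replicate 1 of the control 0 fell.

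Of markers fixed for other cell types, 4 of 9 epithelial, 5 of 6 hematopoietic and 2 of 4 endothelial ones were under 1 CPM in both lines. The highest mean was 36.6 CPM for an epithelial marker (CLDN4), 1.18 CPM for a hematopoietic one (PTPRC) and 4.34 CPM for an endothelial one (VWF). Of 16 epithelial genes 9 passed (median 0.07), CLDN4, a tight junction protein, rose from 24.3 ± 3.45 to 36.6 ± 0.366 CPM (SD, n = 3; 0.59, adjusted p = 1.8e-06) and KRT14 fell (−0.71, adjusted p = 0.0048), a call lost without replicate 1 of the control, while 2 rose without replicate 3 of the control. Their summed level was 450.5 to 489 CPM in the control and 495 to 519 CPM in MMP2sh1, while EPCAM was at a mean of 5.98 and 6.03 CPM and GRHL2 had at most 1 read in a library. The part of this sum in other changes was not tested. Of 15 hematopoietic genes 4 passed (median −0.06), and 1 was called, the actin-bundling protein LCP1, at 9.35, 8.57 and 7.87 CPM in the control libraries and at 19.7, 17.9 and 18.4 CPM in MMP2sh1 and higher in every MMP2sh1 library (log2 fold change 1.12, standard error 0.10, adjusted p = 3.5e-10). Their summed level was 13.6 to 14.2 CPM in the control and 22.4 to 24.0 CPM in MMP2sh1. The defining marker PTPRC (CD45) was at a mean of 1.18 CPM in the control and 0.536 CPM in MMP2sh1, without a call, and CD3E had no read. Of 11 endothelial genes 8 passed (median −0.00), and none was called by edgeR or DESeq2, with 3 at an unadjusted p under 0.05 and 1 called under the replicate block or without replicate 3 of the control. These had a summed level of 67.6 to 79.3 CPM in the control and 70.9 to 77.0 CPM in MMP2sh1. Of 24 genes of the osteoblast lineage 16 passed, 2 rose and 3 fell (median −0.01). RUNX2, the master transcription factor of osteoblasts, was at 51.6, 54.3 and 52.3 CPM in the control libraries and at 43.02, 41.3 and 40.3 CPM in MMP2sh1. It was lower without overlap (log2 fold change −0.35, standard error 0.06, adjusted p = 7.0e-05). SOX9, the factor of the cartilage lineage, fell too (−0.42, adjusted p = 9.8e-09), and the osteoclast inhibitor TNFRSF11B (osteoprotegerin) rose (0.40, adjusted p = 4.1e-04).

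The same lines at the other days gave a measure that the day 0 libraries do not enter. MMP2sh1 was compared with control in the same way at day −2, where 2184 of 18878 genes were called (11.6%, with 6.14% lower and 5.42% higher), and at day +2, where 2854 of 19294 were (14.8%, with 7.11% lower and 7.68% higher). Of the 3290 genes called at day 0, 3248 were tested at day −2, where 2831 had the same sign (87.2%), 1116 were called with that sign and 40 with the opposite sign. At day +2, 3242 were tested, 2605 had the same sign (80.4%), 1151 were called with it and 87 against it. Of the genes that changed by more than 2-fold, 203 of 235 had the same sign at day −2 and 201 of 231 at day +2. Of these, 82 were called with that sign at day −2 and 97 at day +2. Over all genes tested at both days, called or not, Pearson's r of the log2 fold changes with day 0 was 0.35 for day −2 and 0.34 for day +2. The share with the same sign over all tested genes was not computed. The counts of the lists differed at the other days. Of the 20 cholesterol enzymes 5 rose at day −2 and 12 at day +2. The 11 rises among glycolysis and hypoxia genes at day 0 stood against 4 rises and 23 falls of 39 at day +2, where the median was −0.28. Integrated stress response genes rose in 20 of 28 cases at day +2 (median 0.39) and in 3 of 29 at day −2. Histone genes fell in 17 of 38 cases at day +2 (median −0.43) and in 2 of 36 at day −2, and 27 of 79 ribosomal protein genes fell at day +2 (median −0.12). The differences of these counts between days were not tested. HMGCS1 differed by 0.11 at day −2 and 0.42 at day +2, PCDHB8 by −0.61 and −0.33, and COL5A2 by −0.71 and −0.17 on the log2 scale.

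A test of the interaction of line and day asked which differences at confluence were unlike those in subconfluent cells. It was called in 279 of 20617 genes (1.35%), 187 with a higher value at day 0 (0.907%) and 92 with a lower one (0.446%). GPR132 was at 6.301, 9.07 and 6.17 CPM in the control and 3.599, 3.26 and 2.86 CPM in MMP2sh1 at day −2, the reverse of the order at day 0. The control values were far lower at day 0 than at day −2, those of MMP2sh1 were not, and the interaction was 3.50 (adjusted p = 1.2e-07). GLUL, glutamine synthetase, was at 9.11, 9.73 and 9.13 CPM in the control and 11.9, 10.6 and 11.2 CPM in MMP2sh1 at day −2, with MMP2sh1 above. At day 0 it was at 17.3, 16.97 and 18.96 CPM in the control libraries and at 7.69, 6.09 and 7.16 CPM in MMP2sh1, with MMP2sh1 below and an interaction of −1.61 (adjusted p = 1.2e-07). KIF26B overlapped between the lines at day −2 (1.83, 2.46 and 2.25 CPM in the control against 2.11, 1.88 and 2.15 CPM in MMP2sh1) and did not at day 0 (interaction −1.77, adjusted p = 1.5e-04). SLC7A11, the cystine transporter, was lower in MMP2sh1 at day −2 (−0.52, adjusted p = 1.0e-05) and higher at day 0 and day +2 (interaction 0.91, adjusted p = 1.2e-07). Among genes with a more negative difference at confluence were CTSB (−0.46, adjusted p = 1.5e-04), NOV (−0.87, adjusted p = 1.9e-07) and HIST2H2BE (−0.79, adjusted p = 1.9e-05), and among those with a more positive one were TGFBI (0.49, adjusted p = 4.7e-05), ITGB2 (0.96, adjusted p = 8.2e-06) and DIO2 (1.44, adjusted p = 2.8e-05). For MMP2 the interaction was 0.07 (adjusted p = 0.88). The count rested on single libraries, with 144 genes called without replicate 2 of MMP2sh1 at day 0, 177 and 179 without replicate 1 of the control at day 0 or day −2 and 512 without replicate 1 of MMP2sh1 at day −2.

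Against overconfluent cells the interaction was called in 967 of 20773 genes (4.66%), 374 with a higher value at day 0 (1.8%) and 593 with a lower one (2.85%), and in 632 or 610 without replicate 2 or 3 of the control at day +2. ID3, an inhibitor of basic helix-loop-helix factors, was at 189, 149.9 and 163 CPM in the control libraries and at 146, 133 and 148 CPM in MMP2sh1. At day +2 it was at 149.7, 167 and 191 CPM in the control and 29.97, 31.7 and 26.3 CPM in MMP2sh1, a far wider gap (interaction 2.30, adjusted p = 1.0e-15). ID4 was not called at day 0 (0.02) and lower in MMP2sh1 at day +2 (−1.93, adjusted p = 1.2e-10), with an interaction of 1.95 (adjusted p = 1.6e-08). RGS16, a regulator of G protein signalling, went from lower at day 0 (−0.81, adjusted p = 0.0018) to higher at day +2 (1.34, adjusted p = 1.5e-13). The BMP antagonist NOG (−1.22, adjusted p = 5.1e-11), EPHA4 (−2.04, adjusted p = 4.2e-07), SOX9 (−0.68, adjusted p = 1.4e-08) and RNF43 (−0.92, adjusted p = 1.5e-07) were likewise called lower at confluence and higher past it. In SOX2 (−1.34, adjusted p = 1.4e-07) and LAMA4 (−0.74, adjusted p = 1.4e-05) the fall was larger at confluence than past it. MMP14 was lower at day 0 and higher at day +2 (0.24, adjusted p = 0.0023), with an interaction of −0.59 (adjusted p = 2.4e-05).

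**Figure D4:**
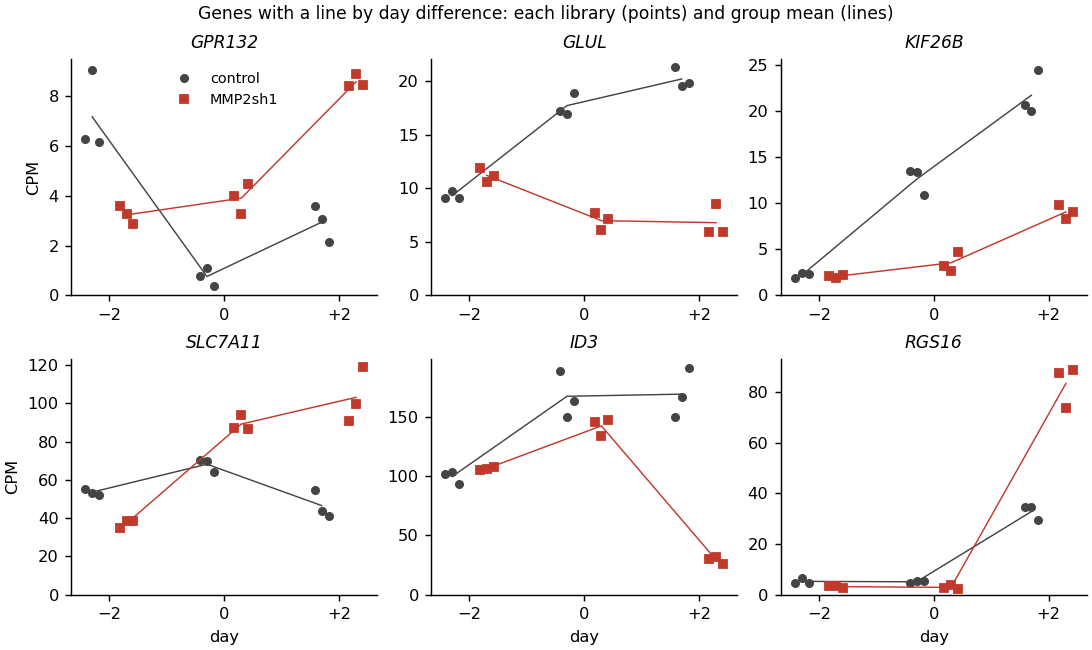
CPM of GPR132, GLUL, KIF26B, SLC7A11, ID3 and RGS16 in each control library (grey circles) and MMP2sh1 library (red squares) at days −2, 0 and +2, with points shifted sideways for clarity and lines through the group means. The gap between the lines opens, closes or turns over between days in each gene.

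The difference from the line with the other hairpin was tested directly, without the control libraries. Between MMP2sh1 and MMP2sh2 at day 0, 3496 of 18875 genes were called (18.5%), 1680 higher (8.9%) and 1816 lower (9.62%) in MMP2sh1. MMP2 itself was lower in MMP2sh1, with a log2 difference of −1.41 (adjusted p = 5.8e-20). HIST1H1C was at 323, 348 and 343 CPM in MMP2sh2, and at 148, 139 and 164 CPM in the control libraries and at 121, 120.2 and 121 CPM in MMP2sh1, so MMP2sh2 lay above both (MMP2sh1 minus MMP2sh2 −1.47, adjusted p = 7.2e-25). COL3A1 (−0.84, adjusted p = 6.0e-10), F2RL2 (−1.14, adjusted p = 1.3e-14), PFDN1 (−1.21, adjusted p = 1.1e-16), WSB2 (−0.88, adjusted p = 1.6e-15), RFC5 (−0.67, adjusted p = 2.2e-10) and GLUL (−1.33, adjusted p = 2.1e-11) were lower in MMP2sh1. INHBA (0.96, adjusted p = 7.3e-17), ANO2 (0.81, adjusted p = 3.7e-12) and GPA33 (2.34, adjusted p = 1.7e-05) were higher. For WSB2, RFC5 and PFDN1 the differences from MMP2sh2 were close to or beyond those from control (−0.88, −0.68 and −0.995). For COL3A1 it was smaller than that from control (−1.66). MMP2sh2 was not tested against control. Of 3259 genes called at day 0 and tested against MMP2sh2, 1523 (46.7%) were called there in the same direction. Both comparisons used the same MMP2sh1 libraries, so nothing is read from that share. For LPCAT2 (−0.51, adjusted p = 0.46), RGS16 (0.30, adjusted p = 0.41) and PCDHA1 (−0.13, adjusted p = 0.89) no difference between the lines was called.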

How the data were processed

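Poly(A) RNA of U2OS lines (3 libraries for each of 3 lines at each of 3 days) was sequenced paired-end. The authors used Trim Galore 0.6.0 for trimming, STAR 2.7.3a with hg19 for alignment, a mapping quality filter and HTSeq 2.0.0, set to ignore strand, for the deposited whole-number read counts of each gene symbol. The union counting discards reads that 2 genes share. Summary lines (18.2% to 19.0% of each day 0 file) were left out, 14525 symbols had no read, and 0 columns were left unmapped.

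Counts of the 6 day 0 libraries were filtered (filterByExpr, minimum count 10, minimum total 15), scaled with TMM factors and tested with edgeR 4.0.16 in R 4.3.3 (quasi-likelihood, called at a Benjamini-Hochberg adjusted p under 0.05), as were days −2 and +2, MMP2sh1 against MMP2sh2, and the interactions of line and day. The standard error is the log2 fold change over the square root of F. The study used DESeq2, here (1.42.0) an alternative. CPM used TMM factors over all 27 libraries. Intervals cover counting error only. The fits were tested on simulated data. No pairing by replicate number was seen between control and MMP2sh1 at day 0, and the fits were unpaired.

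Positions are GENCODE v44lift37 (GRCh37), matched for 35302 symbols. Promoters are from RefSeq (GRCh38.p14).

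Members and the 44 lists were chosen with earlier results of these data known. The genes named by rule were MMP2, the 14 largest falls and 14 largest rises among calls without overlap and with a mean of at least 2 CPM in the higher group (clone names, XIST and Y-linked genes left out), the 6 falls and 6 rises of smallest p, up to 3 falls and rises of each list, 5 extremes in each direction of the interactions and of MMP2sh1 against MMP2sh2, and members of the lowest and highest runs. Further list members were named after their values were seen. The values of some list members are not reported here.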

Additional observations from a re-analysis of the deposited data

Results flagged for a closer look

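Of the 285 genes looked at, 40 had a difference between MMP2sh1 and control at day 0 that was not the same at day −2, by edgeR's test of the interaction of line and day (largest adjusted p = 0.045), against 1.35% of all tested genes. Of the 40, 10 were named for having the largest of these differences, so that choice fixed their calls, and the others were chosen with their day 0 values, which are part of the same difference, known. The values are log2 differences, day 0 minus day −2, so they are not the differences from control at day 0. MMP9, with a more negative value, was called higher at day 0, and SEMA3E, with a more positive one, was called lower. Among matrix, protease and adhesion genes the more negative at day 0 were NOV (−0.87), PI15 (−1.51), LAMA4 (−0.64), ITGA11 (−1.54), MMP9 (−0.76) and CTSB (−0.46), and the more positive were CDH2 (0.27), CRIM1 (0.27), ADAMTS6 (0.46), TGFBI (0.49), AMIGO2 (0.51), SEMA3E (0.63), SEMA6A (0.68), COL13A1 (0.80), ITGB2 (0.96) and ADAMTS8 (1.58). Enzymes of cholesterol synthesis were more positive, SQLE (0.32), HMGCS1 (0.33) and MSMO1 (0.34). The histone genes HIST2H2BE (−0.79), HIST1H1C (−0.60) and HIST1H2BD (−0.60) were more negative, as were UNC80 (−1.93), KIF26B (−1.77), GLUL (−1.61), RNF43 (−0.95), IFIT1 (−0.84), DDIT4 (−0.77), ACTG1 (−0.47), ZNF503 (−0.47) and FTH1 (−0.27). Receptors, transporters, channels and others with a more positive difference were INHBA (0.30), KRT81 (0.42), ANO2 (0.76), SLC7A11 (0.91), TRPV6 (1.11), KRT34 (1.31), DIO2 (1.44), FAM65B (1.53) and GPR132 (3.50).

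Past confluence more genes differed, 85 of the 285 by the same test, day 0 minus day +2 (largest adjusted p = 0.047), against 4.66% of all tested genes. Again 10 of them were named for the size of this difference, and nothing is read from either count. A more negative value need not be a fall from control at day 0. COL1A1 was not called there, and SPARC, TNFRSF11B and MYLK were called higher. Likewise NOV and ACKR3, with a more positive value, were called lower at day 0. Chromosome 5 protocadherins were more negative at day 0, PCDHA10 (−1.86), PCDHB15 (−1.40), PCDHB14 (−0.85), PCDHB11 (−0.80) and PCDHB8 (−0.58). The same held for the matrix and collagen genes LAMA4 (−0.74), COL3A1 (−0.49), COL5A2 (−0.30), COL1A1 (−0.29), FN1 (−0.42), GPC1 (−0.49), LOXL1 (−0.45), MFAP2 (−0.35), LTBP1 (−0.34), LTBP2 (−0.33), SERPINH1 (−0.28) and SPARC (−0.18), and for the proteases and inhibitors PI15 (−1.36), MMP9 (−1.21), MMP14 (−0.59), PLAU (−0.98), CTSB (−0.38), PLAT (−0.27) and TIMP2 (−0.21). More negative receptors, adhesion and guidance genes were EPHA4 (−2.04), SLITRK6 (−1.23), ROR1 (−0.87), ITGA11 (−0.81), ITGA6 (−0.60), CDH11 (−0.56), NRP1 (−0.51), CDH2 (−0.37), ITGB1 (−0.32) and ROBO1 (−0.27). Cytoskeletal genes with a more negative difference were KRT6B (−2.75), KRT14 (−0.79), MYH16 (−0.85), ZYX (−0.46), MYLK (−0.35), MYH9 (−0.28), FLNA (−0.25) and TPM4 (−0.24). Signalling, transcription and metabolic genes with a more negative difference were RASSF6 (−2.79), THSD7A (−2.66), AGMO (−2.26), RGS16 (−2.16), UNC80 (−1.42), SOX2 (−1.34), NOG (−1.22), RNF43 (−0.92), TNFRSF11B (−0.83), ASNS (−0.77), SLC7A11 (−0.77), SOX9 (−0.68), CXCL14 (−0.57), WWTR1 (−0.49), SLC7A5 (−0.44), CCND1 (−0.40), CDK6 (−0.38), VEGFA (−0.35), SREBF2 (−0.31) and EP300 (−0.28). More positive at day 0 than at day +2 were the keratin and contractile genes ANKRD2 (3.03), KRT34 (1.68), KRT81 (0.28), TPM1 (0.31) and FLNC (0.50), the glycolytic enzymes HK2 (1.09), PGAM1 (0.36) and ENO1 (0.25), and AMIGO2 (0.25), PEBP1 (0.29), KAT2A (0.34), CAV1 (0.49), ITGB2 (0.51), LEPREL1 (0.69), HIST1H1C (0.77), BEX1 (0.84), ACKR3 (0.88), NOV (0.90), DIO2 (1.09), ID4 (1.95), NR0B1 (2.15), CLEC7A (2.20) and ID3 (2.30).

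Between the lines of the 2 hairpins at day 0, 18 genes that differed were picked with their values known, so the choice fixed that all of them differ. The values are MMP2sh1 minus MMP2sh2 (edgeR's test, largest adjusted p = 1.7e-04). Lower in MMP2sh1 were ATOH8 (−2.16), ANKRD20A19P (−2.01), HIST1H1C (−1.47), MMP2 (−1.41), SNX19P2 (−1.35), GLUL (−1.33), PFDN1 (−1.21), F2RL2 (−1.14), WSB2 (−0.88), COL3A1 (−0.84) and RFC5 (−0.67), and higher were ANO2 (0.81), INHBA (0.96), IFI44L (1.89), MYH16 (2.04), PAEP (2.07), PDCD1 (2.15) and GPA33 (2.34). Of these, 10 were taken because they had the largest differences, and COL3A1, F2RL2, GLUL, INHBA, ANO2, PFDN1, WSB2 and RFC5 from the genes described above. Other genes described above, among them LPCAT2, RGS16, PCDHA1, BZRAP1 and ADD2, were not called between the 2 hairpin lines, and nothing is read from the count. With 3 libraries a group, single libraries were not screened for outlying values.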

How the results depend on the processing

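At day 0 MMP2sh1 and control differed in 3290 genes as reported, in 3162 with DESeq2, 3288 with median-of-ratios size factors, 3177 without a filter, 3397 with at least 10 counts in every library, 2534 in a fit of all 27 libraries, and 2268 to 2964 with 1 library left out, fewest without replicate 2 of MMP2sh1. The share of calls that were higher stayed between 47.8% and 52.1%. Other ranges with 1 library left out were 1321 to 2274 calls at day −2 (fewest without replicate 1 of the control), 1928 to 3182 at day +2, 2464 to 3224 against MMP2sh2, 144 to 512 for the interaction with day −2 and 610 to 1269 for that with day +2. DESeq2 called 496 genes in the interaction with day −2, where edgeR called 279. No pairing by replicate number was seen between control and MMP2sh1 at day 0. Correlations of same-numbered libraries were 0.03, 7.0e-04 and 0.02, and not every library correlated best with its own number. With 3 libraries a group this cannot exclude a weak pairing, and the other groups were not checked. With the replicate number as a block, 3450 genes were called at day 0, 2597 at day −2, 2126 at day +2, 3397 against MMP2sh2, and 390 and 773 in the interactions.

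Of 421 genes checked at day 0 no call turned in direction, 141 lost their call without some library and 87 under some other setting. All 421 were taken because they were called, and the fits share most of their libraries. A turn in direction was therefore unlikely from the outset, and nothing is read from its absence. List counts stayed within 1.5 times in 457 of 528 cases with a library left out and in 503 of 528 under other settings. Among genes under 1 CPM few differences could be called at this depth.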

Other observations

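The balance of calls was not even across chromosomes, with 8.26% of all tested genes called higher and 8.58% lower. Of 296 tested genes on chromosome 13, 10 were called higher and 46 lower, and the median log2 fold change was −0.08. Chromosome 18 had 5 higher and 36 lower calls among 228 genes (median −0.07), chromosome 19 had 63 and 141 among 1104 (median −0.07), and chromosome 22 had 26 and 64 among 428 (median −0.05). Calls on chromosome 7 went the other way, with 117 higher and 61 lower among 763 genes (median 0.04), as did those on chromosome 21, with 25 and 10 among 175. These counts are given as values, chosen after all chromosomes had been looked at.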
